A study of Mus musculus with 8 samples.

Results

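The BH3-only genes encode the proteins that start mitochondrial cell death, and 8 of them were followed in 4 primary murine PDAC (pancreatic ductal adenocarcinoma) cell lines after inhibition of MEK. The members were named by their gene symbols, Bcl2l11, Bid, Bbc3, Bmf, Pmaip1, Bad, Bik and Hrk, and all 8 were found among the 34478 genes of the deposited table. The lines, numbered #1, #3, #5 and #10, came from pancreatic tumors of a genetically engineered mouse model (Ptf1awt/Cre and Trp53loxP/loxP), so that DMSO and trametinib cells alike come from a model in which Cre recombinase, made from the pancreatic Ptf1a locus, is meant to delete the floxed Trp53. Trametinib, an inhibitor of the kinase MEK in the MAPK pathway, was given for 48 h at the half-maximal inhibitory concentration of each line, a dose that the labels do not give in molar units, and DMSO, its solvent, was given to the controls. Each line gave 1 library of polyadenylated RNA per treatment, 8 libraries in all, and the labels do not state which mice the lines came from or their age. The p-values thus rest on how the change with trametinib varied between these 4 lines, in a fit that also draws on the spread of other genes.

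Cells decide on mitochondrial death by the balance of the BCL2 family. Prosurvival proteins such as BCL2, BCL-XL and MCL1 hold the pore formers BAX and BAK in check, and BH3-only proteins bind into the groove of the prosurvival proteins through their BH3 helix and so release the pore formers. The direct activators BIM (Bcl2l11), BID (Bid) and PUMA (Bbc3) are also able to bind BAX and BAK themselves, whereas the sensitizers BMF (Bmf), NOXA (Pmaip1), BAD (Bad), BIK (Bik) and HRK (Hrk) act mainly by occupying prosurvival proteins. In cells with an active MAPK pathway, BIM protein is phosphorylated by ERK and degraded, a layer that RNA levels do not show.

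Values are normalized counts, which the authors had brought to a common scale across libraries. Each gene was tested on log2(normalized count + 1) with limma in a model that held the line as a block, and p-values were adjusted by Benjamini-Hochberg over 15888 genes, those with a mean of 10 or more. A gene was called when its adjusted p was under 0.05. Because of the added 1, fold changes of genes near 0 come out too small. The libraries summed to 33385300 to 36385700 normalized counts with DMSO and to 30680100 to 33063300 with trametinib, and rested on about 29367000 to 46012000 reads, as estimated from the step between low values. In these libraries 3 reads stood for 2.32 to 3.72 normalized counts, and values below that floor are not separable from 0. The targets of the MAPK pathway Dusp6, Etv4, Spry4 and Ccnd1 fell in 4 of 4 lines, with log2 fold changes between -5.92 and -2.03. Trp53 itself was listed at 353, 275, 327 and 355 normalized counts in the DMSO libraries of lines #1, #3, #5 and #10, and gene totals cannot show which of its exons these reads came from. As for the label of the cells, the ductal keratins Krt8, Krt18, Krt19 and Krt7 and the adhesion gene Cdh1 were abundant in all libraries, and the summed epithelial markers held 112420 normalized counts or more in each library. Epcam, another epithelial marker, was listed at 0 in 6 of 8 libraries and at 10.4 or less in the others.

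Among the 8 members, all of which passed the filter on low values, 4 rose with trametinib and 0 fell. One of the 4, Bik, passed the filter only through its trametinib libraries, where it is high, and the count was 3 in the alternatives in which Bik lost its call or fell below the filter. Over all genes tested the same rule called 27.3% higher (4341 genes) and 25.6% lower (4075 genes). Bmf rose most, to 21.2-fold. Pmaip1 rose to 5.22-fold and Bid to 1.62-fold. Bik, close to 0 in DMSO, was also called, with a fitted 5.37-fold that depends on the pseudocount. Bcl2l11, Bbc3, Bad and Hrk did not pass the test, although the estimates of all 8 members lay above 0, except that of Bbc3 with quantile normalization. At an unadjusted p under 0.05 in limma, 5 members (Bik included) were higher and 0 were lower, beside 31.1% of all genes tested higher and 28.3% lower. The median log2 fold change was 1.01 over the 8 members and 0.69 over the 7 without Bik, beside 0.07 over all genes tested. Both medians of the members include Hrk, which was not called and lay below the floor in some libraries. Every trametinib library lay above every DMSO library for 2 members, Bmf and Pmaip1, against a background of 15.1% of genes tested (2399 genes). By role, the members called were 1 of 3 direct activators (Bid) and 3 of 5 sensitizers (Bmf, Pmaip1 and Bik), the last of them resting on Bik, and the roles were not compared by a test. Libraries rescaled to equal totals moved the balance of all calls from 4341 higher and 4075 lower to 5333 higher and 3285 lower, and then 5 members were called higher. In bulk RNA from a culture, fewer cells with a transcript and less transcript per cell cannot be told apart.

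**Figure D1:**
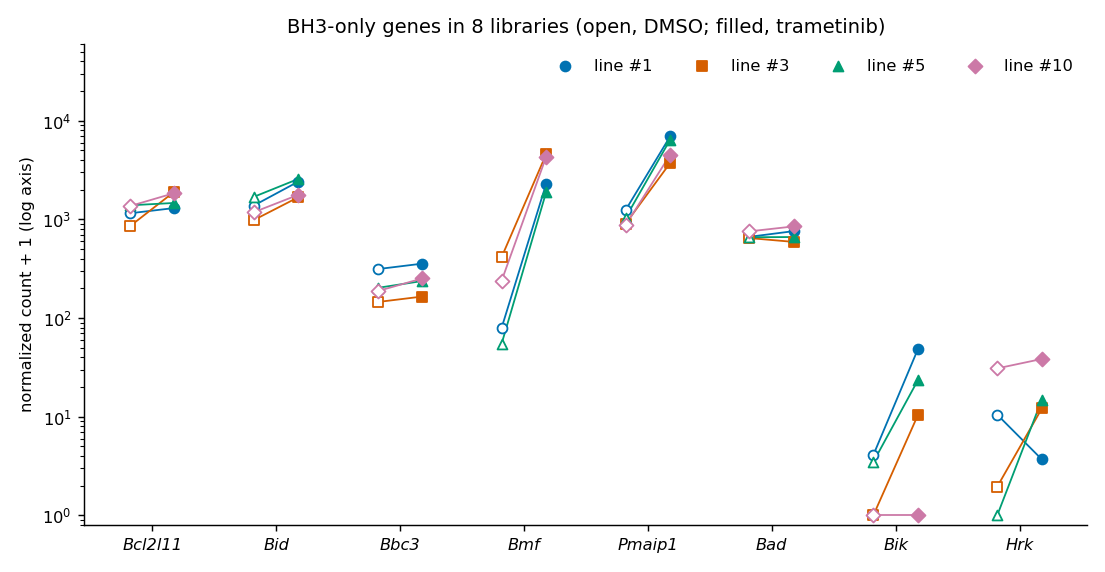
Normalized counts of the 8 BH3-only genes in each library, on a log axis of normalized count + 1, with DMSO and trametinib (MEKi) libraries of the same line joined (open symbols, DMSO, filled symbols, trametinib). For Bmf and Pmaip1 all 4 trametinib libraries lie above all 4 DMSO libraries, whereas the libraries of Bcl2l11, Bbc3 and Bad overlap between treatments.

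The 250 bases before annotated start sites are shown for the member with the largest rise (Bmf), for the activator that rose (Bid) and for the activators with a forkhead motif in a promoter (Bcl2l11 and Bbc3). Each sequence is given 5′ to 3′ on the strand of its gene, from RefSeq on GRCm38.p6, and capitals mark the letters of any motif that was searched. The windows are chr2:118549687-118549936 on the minus strand for Bmf, chr6:120916825-120917074 on the minus strand for Bid, chr2:128125788-128126037 on the plus strand for Bcl2l11 and chr7:16310011-16310260 on the plus strand for Bbc3.
Bmf, start 1: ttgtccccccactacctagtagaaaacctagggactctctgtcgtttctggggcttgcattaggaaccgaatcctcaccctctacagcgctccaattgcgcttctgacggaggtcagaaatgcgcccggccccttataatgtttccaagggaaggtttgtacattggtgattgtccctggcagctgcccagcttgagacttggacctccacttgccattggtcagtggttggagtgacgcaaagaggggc
Bid, start 1: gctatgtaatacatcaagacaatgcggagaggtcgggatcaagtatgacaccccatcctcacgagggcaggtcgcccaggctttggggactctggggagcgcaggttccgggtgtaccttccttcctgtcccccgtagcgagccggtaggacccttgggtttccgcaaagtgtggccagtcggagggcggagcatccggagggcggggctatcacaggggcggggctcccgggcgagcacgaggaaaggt
Bcl2l11, start 1: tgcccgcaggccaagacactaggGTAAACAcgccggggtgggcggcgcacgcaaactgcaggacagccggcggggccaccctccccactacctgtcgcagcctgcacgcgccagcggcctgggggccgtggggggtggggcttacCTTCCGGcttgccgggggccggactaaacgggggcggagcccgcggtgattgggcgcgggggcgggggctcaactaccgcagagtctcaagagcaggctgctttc
Bbc3, start 2: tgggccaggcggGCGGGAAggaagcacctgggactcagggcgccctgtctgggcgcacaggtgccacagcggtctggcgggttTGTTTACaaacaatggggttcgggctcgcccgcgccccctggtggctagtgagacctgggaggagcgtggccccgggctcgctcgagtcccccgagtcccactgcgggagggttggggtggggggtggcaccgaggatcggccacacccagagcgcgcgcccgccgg

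Promoters were found for 6 of the 8 members, with 12 windows in all, and Pmaip1 and Bik were without an entry. On both strands, the search covered the forkhead motif TGTTTAC, the ETS motif CCGGAAG, the AP-1 motif TGANTCA, the E-box CACGTG, the E2F motif TTCCCGC and the cyclic AMP response element TGACGTCA, none of which overlapped another in the members' windows. Bcl2l11 held the forkhead motif at -227 and the ETS motif at -105 of start 1, both read on the opposite strand, where -1 is the base just before the start and a position is that of the leftmost base. Bbc3 held the forkhead motif at -167 and the E2F motif, on the opposite strand, at -238 of start 2, and the E-box at -64 of start 3, a window that overlaps the one of start 2. None of the letters were found in the other windows of Bcl2l11 and Bbc3, nor in the 3 windows of Bmf, the 2 windows of Bad or the single windows of Bid and Hrk. Among all 32851 windows of the same length, 3.17% held the forkhead motif, 6.91% the ETS motif, 6.75% the AP-1 motif, 6.02% the E-box, 3.82% the E2F motif and 1.55% the cyclic AMP response element. A match describes letters in a window and is not a measured site, and no match says only that these letters are not in it.

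Of the direct activators, Bid rose. Its protein is cut by caspase-8 into the truncated form that acts at mitochondria, and so links death receptors to the mitochondrial route. Bid (chr6:120891930-120916853 of GRCm38, minus strand) was measured at 1380, 983, 1691 and 1181 normalized counts in the DMSO libraries of lines #1, #3, #5 and #10. With trametinib the same lines gave 2417, 1678, 2572 and 1775. Each line was thus higher with trametinib, but the DMSO library of line #5 (1691) exceeded the trametinib library of line #3 (1678), so that the ranges of the treatments overlapped slightly. The log2 fold change was 0.69 (standard error, SE, 0.088, 95% confidence interval 0.48 to 0.90, adjusted p = 0.0012). Among the lines it ran from 0.59 to 0.81, with an SD of 0.11 that was the smallest among the members, next to Bbc3 with 0.12. The exons of Bid overlap those of Bcl2l13 on the opposite strand, and the libraries were prepared with a stranded kit. How strand was used in the quantification is not given in the sources used here, and Bcl2l13 had a log2 fold change of -0.29 that did not pass the test (adjusted p = 0.082).

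Bcl2l11, whose product BIM binds every prosurvival protein of the family, was higher with trametinib in 4 of 4 lines without passing the test. In DMSO it was measured at 1152, 851, 1388 and 1363 normalized counts in lines #1, #3, #5 and #10, and with trametinib at 1303, 1913, 1467 and 1849. Line #3 had the lowest value of all libraries in DMSO and the highest with trametinib, while lines #1 and #5 were only slightly higher. The log2 fold change was 0.47 (SE 0.18, 95% confidence interval 0.03 to 0.90, adjusted p = 0.070). It was 1.17 in line #3, and 0.18, 0.08 and 0.44 in lines #1, #5 and #10. Without line #3 the estimate fell to 0.23 (adjusted p = 0.093), and over all alternatives the adjusted p ran from 0.030 to 0.15, with a call only for libraries rescaled to equal totals (log2 fold change 0.59, adjusted p = 0.030). Bcl2l11 lies at chr2:128126038-128162547 of GRCm38 on the plus strand and has 8 annotated transcripts, which a gene total does not separate. The BIM splice forms are therefore not resolved here.

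Bbc3 encodes PUMA, which is best known as a target of the p53 protein. It was measured at 312, 144, 201 and 186 normalized counts in the DMSO libraries of lines #1, #3, #5 and #10 and at 355, 164, 236 and 251 with trametinib. The lines differed more from each other than the treatments did, line #1 being highest and line #3 lowest under both. Bbc3 was higher in 4 of 4 lines by a small amount, and the log2 fold change of 0.26 (SE 0.14, 95% confidence interval -0.08 to 0.59, adjusted p = 0.16) did not pass the test. With quantile normalization the estimate was -0.05 (adjusted p = 0.80), so that no direction is given for Bbc3, which lies at chr7:16308393-16318205 of GRCm38 on the plus strand.

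Bmf rose most of the members. Its protein is held at the cytoskeleton by a dynein light chain and binds prosurvival proteins once released. In DMSO Bmf was measured at 78.4, 413, 53.7 and 237 normalized counts in lines #1, #3, #5 and #10, and with trametinib at 2296, 4591, 1894 and 4325. The treatments did not overlap, since the lowest trametinib value, in line #5, was well above the highest DMSO value, in line #3. The order of the lines was the same in both treatments, #3 above #10, #1 and #5. The lines with the least Bmf in DMSO had the largest rise, an ordering that was not tested. Because the rise is counted from the DMSO value, a low DMSO value by itself makes it larger. The ordering therefore cannot show that the response depends on the level in DMSO. The log2 fold change was 4.41 (SE 0.26, 95% confidence interval 3.78 to 5.03, adjusted p = 0.00016), and 4.85, 3.47, 5.11 and 4.18 in lines #1, #3, #5 and #10. Of the 15888 genes tested, 49 had a larger log2 fold change. The call held under all 14 alternatives, with log2 fold changes of 4.17 to 4.72 and adjusted p-values up to 0.0027. Bmf lies at chr2:118528757-118549687 of GRCm38 on the minus strand, on the chromosome of Bcl2l11.

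Pmaip1 encodes NOXA, a sensitizer that binds MCL1 and thereby promotes its degradation. In DMSO it was measured at 1237, 901, 1035 and 870 normalized counts in lines #1, #3, #5 and #10. With trametinib the same lines gave 6933, 3724, 6411 and 4511. The treatments did not overlap, and the lines were closer to each other than for Bmf, in DMSO in particular. The log2 fold change was 2.38 (SE 0.11, 95% confidence interval 2.11 to 2.65, adjusted p = 9.4e-05), and lay between 2.05 in line #3 and 2.63 in line #5. A larger log2 fold change was found for 509 of the genes tested. As for Bmf, line #3 had the smallest and line #5 the largest rise. Pmaip1 was called under all 14 alternatives, with log2 fold changes of 2.30 to 2.51 and adjusted p-values up to 0.0022. Pmaip1 lies on chromosome 18 of GRCm38, from 66458533 to 66465565 on the plus strand.

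Bad was the member with the steadiest level. Its protein binds BCL2, BCL-XL and BCL-W and is kept inactive by phosphorylation, through kinases such as AKT and RSK, and by binding to 14-3-3 proteins. It was measured at 665, 646, 658 and 755 normalized counts in the DMSO libraries of lines #1, #3, #5 and #10 and at 760, 590, 662 and 848 with trametinib. The ranges overlapped, and Bad was higher with trametinib in 3 of 4 lines, with line #3 the exception. The log2 fold change was 0.06 (SE 0.11, 95% confidence interval -0.20 to 0.32, adjusted p = 0.66). The interval excludes a change as large as that of Bid, though it does not show that Bad stayed the same. Bad (chr19:6941861-6951899 of GRCm38, plus strand) overlaps Gpr137, which is annotated on the opposite strand.

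The remaining sensitizers were at the edge of detection. Bik, whose protein sits mainly at the endoplasmic reticulum, was listed in DMSO at 3.09, 0, 2.47 and 0 normalized counts in lines #1, #3, #5 and #10, about 4, 0, 2 and 0 reads. With trametinib it was listed at 47.4, 9.41, 22.5 and 0, about 49, 10, 28 and 0 reads. Bik was thus higher in lines #1, #3 and #5 and listed at 0 in line #10 under both treatments, and it passed the filter only through its trametinib libraries. The fitted log2 fold change was 2.43 with a pseudocount of 1 (SE 0.69, adjusted p = 0.024), 3.40 with one of 0.1 (adjusted p = 0.051) and 1.53 with one of 5, so that the size of the change is not fixed by these data. The call was also lost without the block for the line (adjusted p = 0.15) and without line #3 (adjusted p = 0.069), and Bik fell below the filter without line #1, without line #5 or with a minimum mean of 50. Bik lies at chr15:83526862-83544634 of GRCm38 on the plus strand.

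Hrk, which is best known from neurons, was listed at 9.49, 0.953, 0 and 29.9 normalized counts in the DMSO libraries of lines #1, #3, #5 and #10 and at 2.69, 11.1, 13.9 and 37.5 with trametinib. It was higher in 3 of 4 lines and lower in line #1, and line #10 held most of it under both treatments. The fitted log2 fold change of 1.33 (SE 0.88, 95% confidence interval -0.76 to 3.43, adjusted p = 0.24) did not pass the test. It rested on an estimated 39 reads or fewer in every library, and its log2 fold change ran from -1.51 in line #1 to 3.90 in line #5. The estimate was 2.28 without line #1 (adjusted p = 0.060) and 0.48 without line #5 (adjusted p = 0.66). Hrk lies at chr5:118164648-118189478 of GRCm38 on the plus strand.

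**Figure D2:**
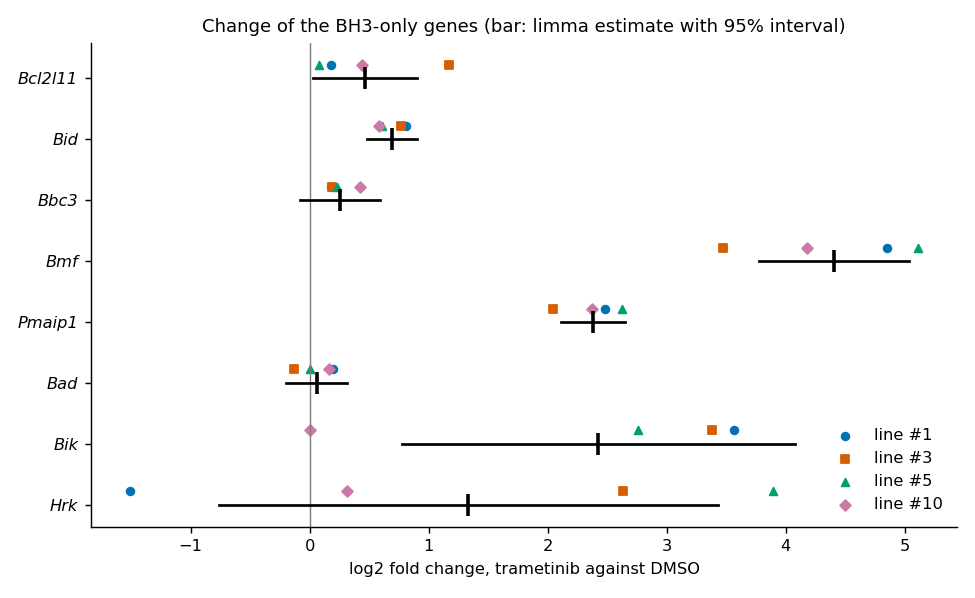
Log2 fold change, trametinib against DMSO, of each member, as the limma estimate with its 95% confidence interval and as 1 point per line. Bmf, Pmaip1, Bid and Bcl2l11 lie above 0 in every line with intervals that exclude 0, though Bcl2l11 did not pass after adjustment, while the points of Bik and Hrk spread widely.

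**Figure D3:**
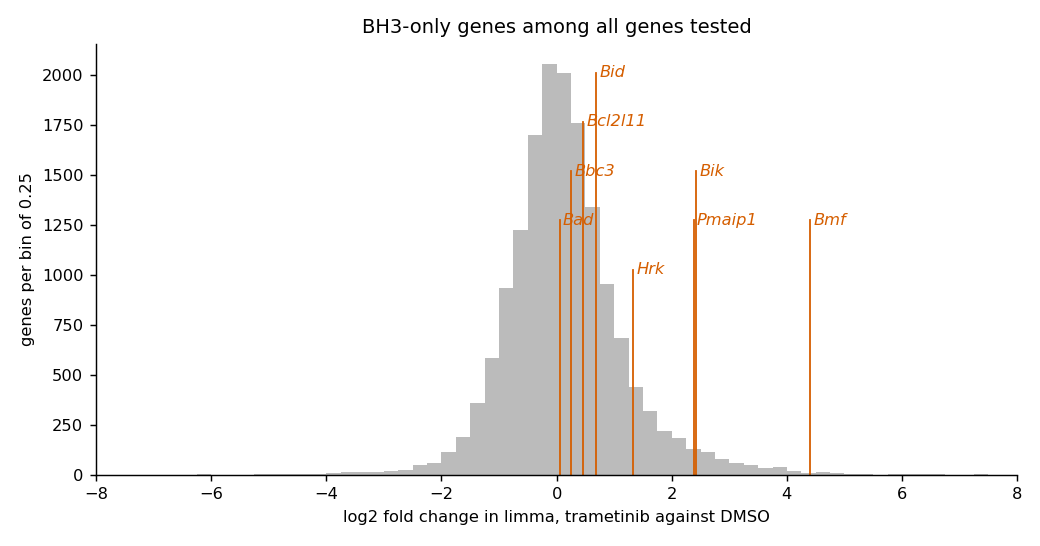
Histogram of the log2 fold changes of the 15888 genes tested, with the 8 members drawn as vertical lines. Bmf, Pmaip1 and Bik lie in the upper tail, and Bad, Bbc3, Bcl2l11 and Bid within the bulk.

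To compare the members with each other, levels were divided by the length of the union of a gene's annotated exons, in kilobases, and are given as normalized counts per kilobase (mean ± SD, n = 4 lines). In DMSO, Pmaip1 (370 ± 61.2) and Bid (369 ± 85.0) led, followed by Bad (266 ± 19.6), Bcl2l11 (148 ± 31.0), Bbc3 (99.4 ± 33.8) and Bmf (37.3 ± 31.7), with Hrk (1.78 ± 2.44) and Bik (0.874 ± 1.02) last. Neighbours in this order overlapped in their ranges, apart from Bad, which lay above Bcl2l11 in every library, and Bmf, which lay above Hrk in every library. With trametinib the level of Pmaip1 was 1975 ± 558, and its lowest library (1363) lay above the highest of any other member. Bmf moved from the sixth to the second place, with 624 ± 262, a level that overlapped that of Bid (595 ± 127). Bad followed at 280 ± 44.2, Bcl2l11 at 203 ± 36.7, Bbc3 at 118 ± 37.0, Bik at 12.5 ± 12.9 and Hrk at 2.87 ± 2.63. The order depends on the length used, since with the longest transcript Bid led in DMSO, ahead of Bad and Pmaip1, and Bid stood before Bmf with trametinib.

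Summed over the 8 members, the level per kilobase was 1410, 1112, 1392 and 1254 in the DMSO libraries of lines #1, #3, #5 and #10. With trametinib it was 4313, 3264, 4001 and 3661. The sum was higher in each line, and the ranges did not overlap. Of the summed level, Pmaip1 made up 28.6% ± 2.93 in DMSO and 51.1% ± 8.95 with trametinib (mean ± SD, n = 4), and Bmf 3.12% ± 2.93 and 17.1% ± 8.88. The share of Bid was 28.3% ± 4.09 in DMSO and 15.5% ± 1.94 with trametinib, that of Bad 20.8% ± 2.71 and 7.37% ± 1.15, and that of Bcl2l11 11.4% ± 1.88 and 5.48% ± 1.61. Shares sum to the whole, so that a lower share of Bid or Bad goes along with the levels of Pmaip1 and Bmf and does not mean a lower level.

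**Figure D4:**
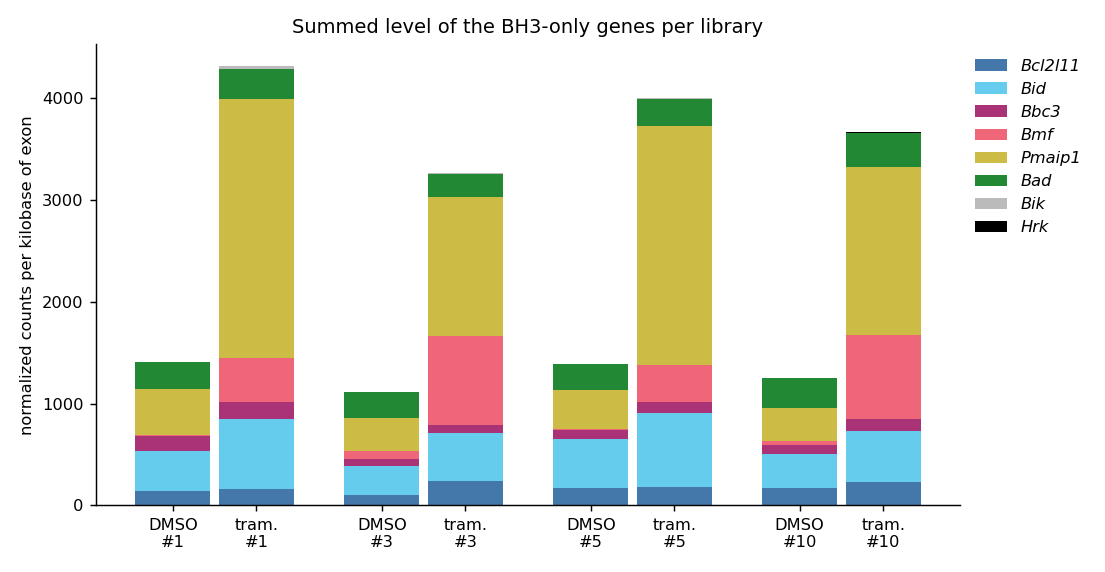
Level of each member per kilobase of exon, stacked for each of the 8 libraries, in normalized counts per kilobase. The stacks of the trametinib libraries are 3264 to 4313 high against 1112 to 1410 in DMSO, and Pmaip1 and Bmf take up most of the added height.

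The lines differed in which members they held most of, a pattern picked out after the values were seen and not tested. Lines #1 and #5 held more Bid and less Bmf than lines #3 and #10 under both treatments. Pmaip1 was also higher in lines #1 and #5 than in lines #3 and #10 under both treatments. It was at 1237 and 1035 against 901 and 870 normalized counts in DMSO, and at 6933 and 6411 against 3724 and 4511 with trametinib. With trametinib, Bmf thus took its largest share of the summed level per kilobase, up to 26.8%, where that of Pmaip1 was smallest, down to 41.8%.

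BH3-only proteins act by binding prosurvival proteins, and the genes of these partners were tested in the same fit. Of 11 listed family members, 10 were in the table and 7 passed the filter, of which 2 rose, 2 fell and 3 did not pass the test, with a median log2 fold change of -0.37. These shares are near those over all genes tested, 27.3% higher and 25.6% lower. Mcl1, the main partner of NOXA, rose by 0.29 on the log2 scale (SE 0.080, adjusted p = 0.022) in 4 of 4 lines, and Bcl2l2, which encodes BCL-W, by 0.46 (SE 0.12, adjusted p = 0.015). Bcl2 fell, with a log2 fold change of -0.54 (SE 0.19, adjusted p = 0.046), with line #1 near 0, and the pore former Bax one of -0.49 (SE 0.11, adjusted p = 0.011). Bcl2l1, which encodes BCL-XL, was at a log2 fold change of -0.37 (adjusted p = 0.094), Bok one of -0.46 (adjusted p = 0.22) and Bak1 one of 0.01 (adjusted p = 0.95), and none of these passed. Bcl2a1b was listed at 0 in every library, Bcl2a1d and Bcl2l10 were below the filter, and Bcl2a1a was not analysed here. Annotated genes on the same strand overlap Bax (Gm45808) and Bcl2l2 (Gm20521), and how reads were split between them is uncertain. The counts of partners called depend on the processing, and in the fit without the line as a block 1 rose and 0 fell. Without line #1, #5 or #10, 0 were called higher, so that Mcl1 and Bcl2l2 lost their calls there. The number called lower was 2 without line #1 and 1 without line #5 or #10.

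The level of a BH3-only gene relative to a partner was compared per line as a log2 ratio, for 5 pairs, and tested over the lines by an exact two-sided permutation of signs, which cannot give a p below 0.125 with 4 lines. Relative to Mcl1, Bmf was higher with trametinib by 4.12 ± 0.80 (mean change of the log2 ratio ± SD, n = 4, exact p = 0.125, adjusted p = 0.21) and Pmaip1 by 2.10 ± 0.31 (exact p = 0.125, adjusted p = 0.21). The same gene Bcl2l11 looked different against each partner. Against Bcl2l1 its ratio was higher by 0.83 ± 0.29 (0.46, 0.97, 0.77 and 1.14 in lines #1, #3, #5 and #10, exact p = 0.125, adjusted p = 0.21). Against Mcl1 the change was 0.18 ± 0.45 (exact p = 0.75, adjusted p = 0.75) and rested on line #3 (0.84), without which it was -0.04. The ratio of Bad to Bcl2l1 changed by 0.43 ± 0.53 (exact p = 0.25, adjusted p = 0.31), and line #3 went the other way. Without line #3 that change was 0.68, and without line #10 it was 0.28.

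Transcription factors that are known to act on BH3-only genes were looked at next. Of 12 listed, 10 passed the filter, 3 rose, 4 fell and 3 did not pass, beside 27.3% higher and 25.6% lower over all genes tested. The number that fell was 3 with equal totals, without the block and without line #1, #5 or #10. Foxo3, a forkhead factor known to bind the Bcl2l11 and Bbc3 promoters, rose by 1.29 on the log2 scale (SE 0.10, adjusted p = 0.00031) in 4 of 4 lines, whereas its relatives Foxo1 (0.16, adjusted p = 0.24) and Foxo4 (0.29, adjusted p = 0.079) did not pass. Jun, a part of AP-1, rose by 1.76 (SE 0.32, adjusted p = 0.0038), with 3.09 in line #3 and 1.04 to 1.54 in the others. Line #3 was thus the line with the largest log2 fold change of both Jun and Bcl2l11, an observation over 4 lines without a test. Ddit3, which encodes the stress factor CHOP, rose by 1.38 (SE 0.13, adjusted p = 0.00047), while Atf4 had a log2 fold change of -0.31 that did not pass (adjusted p = 0.15). Myc was at a log2 fold change of -1.01 (adjusted p = 0.00031), E2f1 of -0.76 (adjusted p = 0.0014), and the immediate early gene Egr1 of -4.64 (adjusted p = 9.4e-05), and each of these fell in 4 of 4 lines. Trp53, whose levels in DMSO are given above, was listed at 196, 216, 218 and 278 normalized counts with trametinib in lines #1, #3, #5 and #10, below all DMSO values but for line #10 against line #3, and its log2 fold change was -0.53 (adjusted p = 0.022). Its relatives Trp63 and Trp73 were below the filter.

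**Figure D5:**
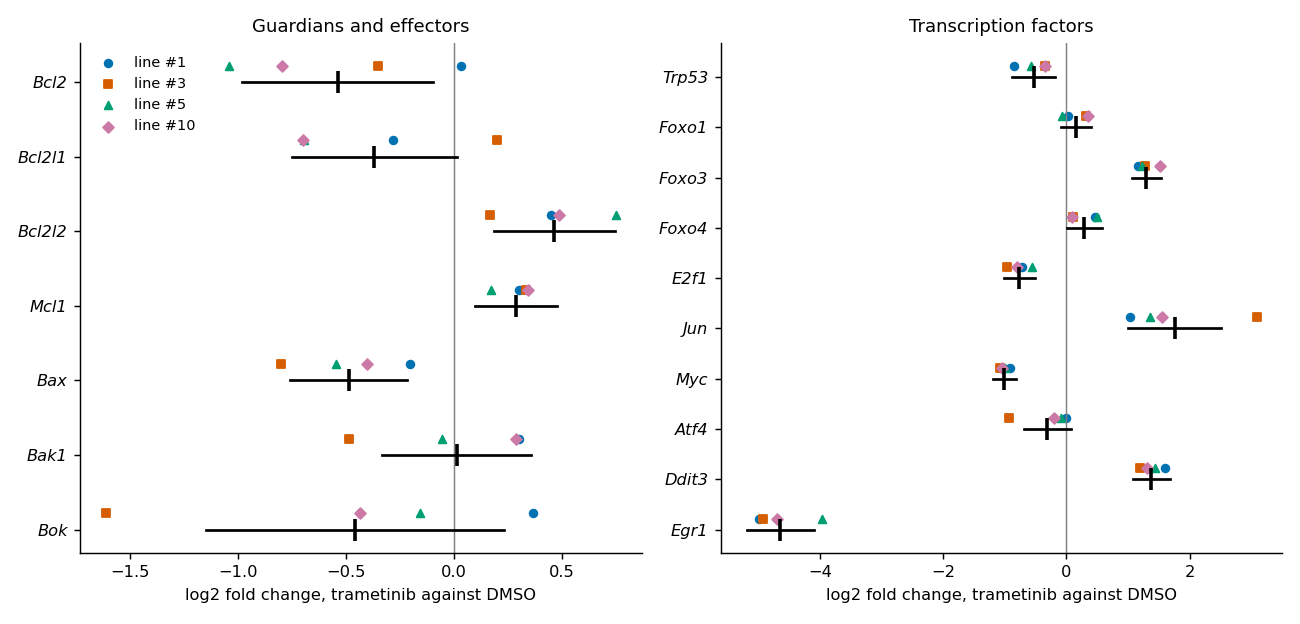
Log2 fold change, trametinib against DMSO, of the BCL2 family partners (left) and the transcription factors (right) that passed the filter, on axes of different length, as the limma estimate with its 95% confidence interval and 1 point per line. The estimates of the partners lie between -0.54 and 0.46, whereas those of the factors reach from -4.64 for Egr1 to 1.76 for Jun.

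Genes whose proteins hold, cut or modify BH3-only proteins were measured as well, and of 17 genes tested 2 rose, 8 fell and 7 did not pass, beside 27.3% higher and 25.6% lower over all genes tested. The number that fell was 5 without the block and 12 with libraries centred on their median. The number that rose was 1 without the block and without line #5 or #10, and 3 without line #3. At least 1 of the 2 calls higher was thus lost in the first 3 of these settings. Of the dynein light chain genes, Dynll2, whose product holds BMF, did not pass (log2 fold change -0.21, adjusted p = 0.081), and Dynll1, whose product holds BIM, fell (-0.38, adjusted p = 0.023). For BID, Casp8, the protease that cuts it, fell by 0.43 on the log2 scale (adjusted p = 0.0059). For BAD, the kinase genes Akt1 (-0.54, adjusted p = 0.0023) and Rps6ka1 (-0.76, adjusted p = 0.0014) fell. The other kinase genes listed, Akt2 (-0.19, adjusted p = 0.078), Rps6ka3 (-0.25, adjusted p = 0.077) and Pim1 (0.36, adjusted p = 0.14), did not pass. Of the 14-3-3 genes, Ywhab, Ywhae, Ywhag and Ywhaz fell, with log2 fold changes of -0.79 to -0.32. Ywhah (-0.22, adjusted p = 0.11) and Ywhaq (-0.30, adjusted p = 0.060) did not pass. The other 14-3-3 gene called, Sfn, rose by 3.07 on the log2 scale (SE 0.25, adjusted p = 0.00033), from a mean of 109 to a mean of 1008 normalized counts. For BIM, the ubiquitin ligase gene Btrc rose by 0.43 (adjusted p = 0.015), and Usp27x, which encodes a deubiquitinase of BIM, had a log2 fold change of -0.27 that did not pass (adjusted p = 0.39).

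For each member, the genes with the most similar pattern were taken as those with the highest Pearson correlation on the log2 scale over the 8 libraries, among at least 10824 genes with a mean of 100 or more. Treatment and line are shared by these points, so the correlations are a description. For Bmf they were Pdk2, Enpp3 and Alpk1 (r = 0.99 for each), and for Pmaip1 Prkd2, Sned1 and Vwa8 (r = 0.99 for each). For Bid they were Ston1, Dapk3 and Zfp790 (r = 0.98 for each). The closest gene to Bcl2l11 was Klhl5 (r = 0.94), a lower value than for any other member. Enox2 was closest to Bbc3 (r = 0.98), Mark2 to Bad (r = 0.99), Usp53 to Bik (r = 0.97) and Plekhg4 to Hrk (r = 0.95).

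Of the markers of other cells that were tested, 1 of 5 fibroblast, 1 of 3 leukocyte and 0 of 2 endothelial genes rose, beside 27.3% of all genes tested. The summed fibroblast markers (8 genes) were 94.9 to 366 normalized counts with DMSO and 440 to 1258 with trametinib, which rested on Col1a1 (log2 fold change 3.60, adjusted p = 0.00087), while Lum was listed at 0 everywhere and Col1a2 at no more than 4.29. The summed leukocyte markers (5 genes) were 13.6 to 61.3 with DMSO and 51.4 to 364 with trametinib through Csf1r (log2 fold change 2.83, adjusted p = 0.00070), and the defining gene Ptprc was at 17.2 or less. The summed epithelial markers (6 genes) were 220830 to 347527 with DMSO and 112420 to 220764 with trametinib, and Krt8, Krt18, Krt19 and Krt7 fell, with log2 fold changes of -0.97 to -0.66, while Cdh1 had one of -0.02 (adjusted p = 0.88). The summed endothelial markers (3 genes) were 14.5 to 47.3 with DMSO and 25.9 to 70.3 with trametinib, higher in 4 of 4 lines, with no gene called. The summed acinar markers (4 genes) were 40.3 to 252 with DMSO and 15.6 to 127 with trametinib, lower in 4 of 4 lines, and Cela1 fell (log2 fold change -0.73, adjusted p = 0.026) while Cpa1 was listed at 0 everywhere. The part of these shifts in the changes of Bmf, Pmaip1, Bid and Bik was not tested.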

How the data were processed

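Stranded polyA libraries were sequenced from 4 lines with DMSO and trametinib. A further allele of the mouse model is not reported here. The authors deposited normalized counts per gene symbol, a signal that is not whole reads, and whole reads were not recovered. The submitters' processing notes name CASAVA 2.17, Salmon 0.12, DESeq2 1.18 and mm10, with no role for each. All 8 columns were used. Values were fitted as log2(value + 1) with limma 3.58.1 in R 4.3.3 (eBayes with trend, line as a block, mean of at least 10, Benjamini-Hochberg adjustment, threshold 0.05). The labels give both libraries of a line the same line number, and their deviations from the treatment means correlated at 0.63 to 0.72 across genes. Gene positions and exon lengths were read from GENCODE M21 (GRCm38) by gene symbol. Tables and plots were made with Python 3.11.15, pandas 2.3.3 and matplotlib 3.10.9. The fit was tested on simulated data.

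The members and gene lists were chosen with earlier results of these data known. The genes named are the 8 members, the genes of the lists (BCL2 family partners, transcription factors, protein partners and modifiers, other proteins with a BH3-like region, MAPK targets, cell type markers), and up to 3 genes with the most similar pattern per member. In the search for similar patterns, symbols of the Gm-number, Rik, LOC, BC or date kind were left out, and other clone-based symbols were not. Alternatives were pseudocounts of 0.1 and 5, equal totals, quantile normalization, median centring, no block, no filter, a stricter filter (mean of 50), eBayes without trend or with robust estimation, and leaving out each line in turn.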

Additional observations from a re-analysis of the deposited data

How the results depend on the processing

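Bmf, Pmaip1 and Bid kept their direction and call under all 14 alternatives, and Bad kept an estimate above 0 without a call. The number of members called higher was 3 to 5 and the number called lower was 0 throughout. It was 3 without line #1, #3 or #5, with a pseudocount of 0.1, with a filter at 50 and without the replicate block. Bik was lost in each of these settings. Without the replicate block, all calls over the genes tested were 2205 higher and 2347 lower. Bbc3 reversed with quantile normalization (-0.051). For the partners, 1 gene was higher with median centring, without the replicate block and without a trend (0 without line #1, #5 or #10 and 2 without line #3), and 1 was lower with equal totals, without a filter and without a trend, and 0 without the block (1 without line #5 or #10, 2 without line #1 or #3). Of the other proteins with a BH3-like region, 4 were higher with equal totals, 1 with median centring, and 0 without a filter, without the block and without a trend (0 without line #1, #5 or #10 and 2 without line #3), and 2 were lower with median centring and 0 without the block (2 without line #10, 1 without each other line). Of the protein partners and modifiers, 1 was higher and 5 were lower without the block and 12 were lower with median centring (1 higher without line #5 or #10, 3 without line #3, and 6 to 9 lower with a line left out). Against the main fit, the median of all genes shifted by 0.13 with equal totals and by -0.10 with quantile normalization. The causes were not tested. Bik and Hrk rested on an estimated 49 reads or fewer in a library.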

Other observations

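Other proteins with a BH3-like region, which are not counted among the BH3-only genes above, were measured as well. Of 8 tested, 2 rose, 1 fell and 5 did not pass the test in limma, beside 27.3% higher and 25.6% lower over all genes tested. The number that rose was 0 without a filter, without the block, without a trend and without line #1, #5 or #10, so that the calls of Bnip3 and Bnip3l were lost there. Bnip3, which marks mitochondria for removal and is a known hypoxia target, rose by 0.97 on the log2 scale (SE 0.31, adjusted p = 0.037) in 3 of 4 lines, and its relative Bnip3l by 0.28 (SE 0.082, adjusted p = 0.027) in 4 of 4 lines. Bcl2l15 fell in 4 of 4 lines, from a mean of 371 to a mean of 49.4 normalized counts (log2 fold change -2.44, standard error 0.38, adjusted p = 0.0023), the opposite direction to Bmf and Pmaip1. The autophagy gene Becn1 was at a log2 fold change of 0.12 (adjusted p = 0.22), and Huwe1, which encodes a ubiquitin ligase of MCL1 with a BH3-like region, one of -0.15 (adjusted p = 0.26).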
